A study of Caenorhabditis elegans with 2 samples.

Results

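The 9 genes that encode subunits of the AMP-activated protein kinase (AMPK) in Caenorhabditis elegans were examined in peak lists from a ChIP-seq experiment on the homeodomain protein UNC-62. They are the 2 genes of the catalytic alpha subunit (aak-1 and aak-2), the 2 of the beta subunit (aakb-1 and aakb-2) and the 5 of the gamma subunit (aakg-1 to aakg-5), out of 19973 protein-coding genes on the 6 nuclear chromosomes. All 9 were found in the annotation. The genes were chosen by family after peak ranks of these same lists were known, so their ranks, signal values and counts are given as a description and carry no test.

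Chromatin came from whole L4 larvae, the last larval stage, of strain OP602, in 1 group of 2 biological replicates of mixed sex with 1 technical replicate each. Both replicates carry UNC-62 fused at its C-terminus to a GFP-FLAG tag in a stable transgenic line, described as an insertion at unc-62, and the antibody is listed as one to UNC-62. The labels give no second strain, genotype or treatment, so there was no comparison between conditions. Nothing in the labels says whether the tagged protein replaces all UNC-62 in these animals, and in whole larvae binding in few cells cannot be told apart from weak binding in many.

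AMPK is a heterotrimer that is switched on when cellular energy falls. The alpha subunit carries the kinase domain, the beta subunit holds the complex together and has a carbohydrate-binding module, and the gamma subunit binds AMP, ADP and ATP and so senses the energy state. In the worm the kinase is known for its part in long life under energy stress, in the dauer larva and in germline quiescence during starvation. UNC-62 is the worm member of the Meis family of homeodomain proteins, which are known to bind DNA together with PBC and Hox partners at a core of TGACAG.

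The 9 windows, each made of the gene and 5000 bp upstream of it, were searched for peak summits in 4 deposited ce11 lists. These contain 114 peaks that passed the authors' irreproducible discovery rate (IDR) threshold, 30000 peaks called on the pooled replicates, 15466 in replicate 1 and 24524 in replicate 2. The pooled list includes weak background regions, so a pooled peak by itself is not evidence of binding. Peaks are ordered by the authors' signal value, with rank 1 the strongest of a list, and signal values are not compared between lists because their scaling is not given. The 112 IDR peaks that overlapped a peak of both replicates were all among the 114 strongest pooled peaks. Each had the same rank in both lists, so an IDR rank is not a second measure beside the pooled rank. Replicate ranks of an IDR peak could lie far apart, at most 587-fold (14088 in replicate 1, 24 in replicate 2). Read depth is unknown. In the targeted gene, unc-62, the strongest peak ranked 1 in the pooled list, 1 in replicate 1 and 2 in replicate 2.

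Of the 9 subunit genes, aakg-3, which encodes a gamma subunit, was the 1 with an IDR summit in its window. Over all protein-coding genes, 174 of 19973 had one, a share of 0.871% (95% exact binomial interval 0.747 to 1.01%, for counting error only). The peak lay at chrX:2971514-2971889 in WBcel235 (ce11), with its summit at position 2971702. It had a signal value of 48.2 and rank 28 in the pooled list, and the IDR list holds the same peak with the same values. In replicate 1 the overlapping peak had a signal value of 24.5, rank 20 and its summit at 2971685. In replicate 2 it had a signal value of 27.5, rank 38 and its summit at 2971697. The 2 replicates thus placed the site among their 50 strongest peaks, as they did for 21 of the 112 IDR peaks that overlapped a peak of both. Their summits lay 12 bp apart. The replicates' ranks differed 1.9-fold here, against a median of 4.22-fold over those 112 peaks.

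The site is intergenic and distal. The gene aakg-3 (WBGene00021527) runs from 2976448 to 2981027 on the plus strand with 1 annotated transcript start, and the summit lay 4746 bp upstream of it, 254 bp inside the 5000 bp limit. No other protein-coding gene had the summit in its window, and of 114 IDR summits 12, or 10.5%, lay at least as far from any protein-coding transcript start, against a median of 954 bp. Towards lower coordinates the nearest protein-coding gene was gbb-1, which encodes a GABA type B receptor subunit. It lies on the plus strand from 2957935 to 2968192, and its end lay 3510 bp from the summit. Closer than either was the microRNA gene mir-34, on the minus strand from 2969752 to 2969848. The summit lay 1854 bp upstream of the 5' end of the annotated mir-34 hairpin, so that mir-34 and aakg-3 point away from each other with the peak between them. The microRNA was named after the values were seen. These lists do not tell which of the genes, if any, the site acts on.

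The sequence around this summit is shown because it holds a Meis core. It covers chrX:2971602-2971802 of WBcel235, plus strand, with matches to 4 searched sequences in capitals. Both strands of every window were searched. The Meis core is TGACAG, which appears below in reverse complement. The GAGA repeat is spelled GAGAGA. The Hox-PBC sequence is spelled TGATNNAT. The E-box is spelled CACGTG and was added to the search after the sequence had been read.

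aakg-3 upstream IDR peak: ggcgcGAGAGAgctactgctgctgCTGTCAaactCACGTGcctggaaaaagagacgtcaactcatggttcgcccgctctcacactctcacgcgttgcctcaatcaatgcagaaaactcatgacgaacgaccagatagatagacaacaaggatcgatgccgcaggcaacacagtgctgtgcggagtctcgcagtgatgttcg

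The 3 matches lay on one side of the summit, with the GAGA repeat 90 bp, the Meis core 71 bp and the E-box 61 bp away, so 4 bp separate the core from the E-box. The Meis core was in 15 of 114 IDR windows of 201 bp, or 13.2%, and in 7.57% of pooled windows. The 95% exact binomial interval of this IDR share, for counting error only, was 7.56 to 20.8% and includes the pooled share. A higher share of the Meis core at IDR peaks is therefore not shown. The GAGA repeat was in 43% of IDR windows and 13.6% of pooled ones, the Hox-PBC sequence in 18.4% and 16.5%, and the E-box in 11.4% and 3.89%. The aakg-3 window was the 1 IDR window of 114 that held the Meis core, the GAGA repeat and the E-box together, which 17 of 30000 pooled windows did. The combination was looked up after the sequence had been read. GC content was 53.7%, against a median of 45.3% over IDR windows and 35.8% over pooled windows, and no base was soft-masked as repeat in the reference sequence, as in 25.4% of IDR windows. A match describes these letters and does not show which protein bound.

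Signal near aakg-3 was weak outside this site. At its promoter the strongest pooled peak, 250 bp upstream of the start, had a signal value of 13.9 and rank 7677. It overlapped a peak of rank 3129 in replicate 1 and none in replicate 2. Another pooled peak 837 bp upstream, with a signal value of 13.1, overlapped a peak of rank 4164 in replicate 2 and none in replicate 1. Inside the gene the single pooled summit, in a coding exon 4406 bp from the start, ranked 17492. On the far side, 1207 bp from the IDR summit and towards mir-34, a pooled peak had a signal value of 18.8 and rank 1794. Peaks close to it ranked 1692 in replicate 1 and 10081 in replicate 2. Without the distal site the best pooled rank of aakg-3 was 7677, that of the promoter peak.

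**Figure D1:**
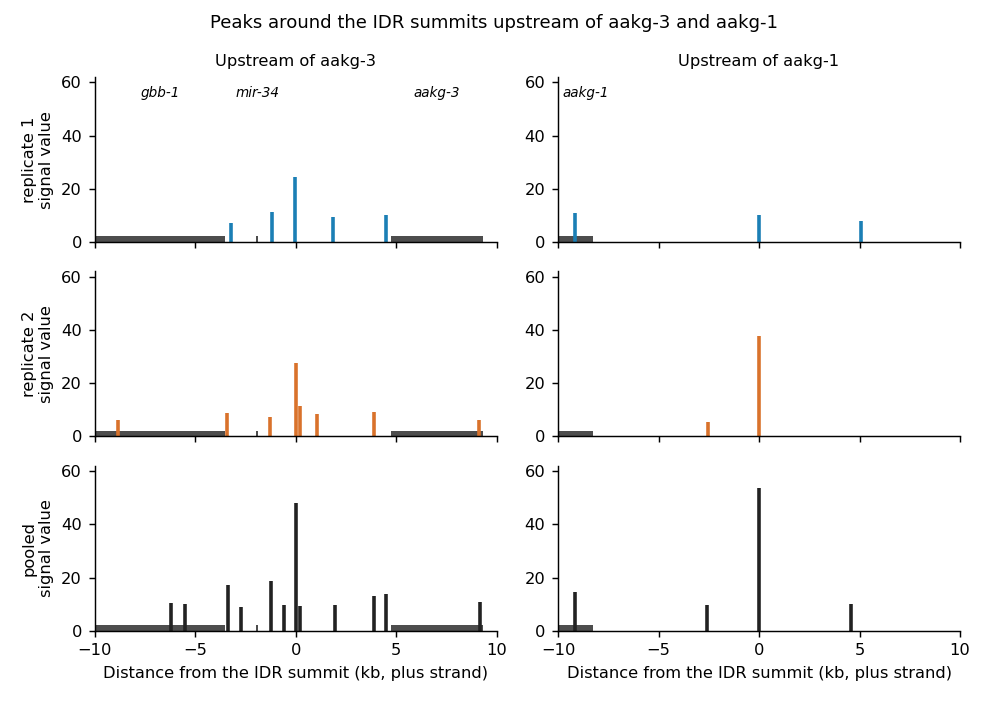
Signal value of each peak (vertical axes, authors' units, not comparable between lists) against its distance from the IDR summit in kb, for the sites upstream of aakg-3 (left) and aakg-1 (right) in replicate 1, replicate 2 and the pooled list. Dark bars on the axes are gene bodies. At aakg-3 the central peak stands out in both replicates (24.5 and 27.5), and at aakg-1 in replicate 2 (37.7), while in replicate 1 it (10.1) is no higher than a peak inside aakg-1 (10.8).

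For a second gamma subunit gene, aakg-1, an IDR peak lay upstream but beyond the 5000 bp limit, with aakg-1 the nearest protein-coding start. The gene (WBGene00013732) spans 36738 bp on the minus strand of chromosome III, from 12538664 to 12575401, with 7 annotated transcript starts. The peak lay at chrIII:12583488-12583863, with its summit at 12583676, 8275 bp upstream of the gene's 5' end. It had a signal value of 53.8 and rank 17 in the pooled list. In replicate 2 the site had a signal value of 37.7 and rank 12, and in replicate 1 a signal value of 10.1 and rank 3009. The replicates therefore differed far more here than at aakg-3, and among the 112 just mentioned 3, this one included, had a gap between replicate ranks at least this wide. The next protein-coding gene on the other side, gldi-8, ended 12318 bp from the summit and is also on the minus strand. Among IDR summits, 3 of 114 (2.63%) lay as far as this or farther from a protein-coding start.

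The sequence of this distal site is shown for comparison, from chrIII:12583576-12583776 of WBcel235, plus strand, with the same 4 sequences in capitals.

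aakg-1 distal IDR peak: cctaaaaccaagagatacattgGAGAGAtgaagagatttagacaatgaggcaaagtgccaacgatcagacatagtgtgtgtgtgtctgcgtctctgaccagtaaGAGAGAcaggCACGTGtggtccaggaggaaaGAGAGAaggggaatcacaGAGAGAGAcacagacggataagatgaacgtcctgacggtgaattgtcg

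It held no Meis core but 5 matches to the GAGA repeat, of which 2 overlap, and an E-box 14 bp from the summit. Both distal windows thus held a GAGA repeat together with an E-box, as did 5 of 114 IDR windows (4.39%) and 0.527% of pooled windows. This combination, too, was looked up after both windows had been read, and the 5 include both.

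Within the aakg-1 window itself, 17 pooled summits were found, all of them inside the gene and most in introns. Their density was 0.407 per kb, against 0.299 per kb over the 6 chromosomes, which include sequence outside gene windows. No density over all gene windows was taken. The strongest of the 17, 17438 bp from the 5' end in an intron, had a signal value of 20.0 and rank 1280. It overlapped a peak of rank 2118 in replicate 2 and none in replicate 1. Next was an intron peak 7370 bp from the 5' end with a signal value of 19.2 and rank 1559. It overlapped the strongest peak of replicate 2 in this window, of rank 728, and a peak of rank 8040 in replicate 1. Replicate 1 had its strongest peak, of rank 2177, 856 bp from the 5' end, where replicate 2 had no peak. The replicates thus put their strongest aakg-1 peak at different places.

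The other gamma subunit genes had weaker peaks. At aakg-4 (X) the strongest pooled peak lay 92 bp upstream of the 5' end, with a signal value of 18.2 and rank 2066. Replicate 1 had a peak of rank 4503 with its summit at the same base, and replicate 2 had none there. Replicate 2 had a single summit in this window, of rank 6535 and 4433 bp upstream, which overlapped a peak of rank 7722 in replicate 1. At aakg-5 (II) the better of 2 pooled peaks, in an intron 1092 bp from the 5' end, had a signal value of 9.2 and rank 26431 and overlapped no peak of either replicate. At aakg-2 (X), a gene in which a gain-of-function mutation is known to activate the kinase, the better of 2 pooled peaks ranked 17906, with a signal value of 10.9. That summit lay 4819 bp upstream in a coding exon of the neighbouring gene T20F7.1. Neither replicate list had any summit in the aakg-2 window, the 1 member of 9 for which this was so.

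Both alpha subunit genes had their strongest pooled peak in an intron, at nearly the same rank. For aak-2 (X), the catalytic subunit gene known from work on lifespan, the peak had a signal value of 19.6 and rank 1430. It lay 2092 bp downstream of the 5' end and 1528 bp upstream of a later annotated start of the same gene. Replicate 1 had rank 1833 there, with a signal value of 11.1, and replicate 2 rank 3122, with a signal value of 9.78, in both cases the strongest peak of the replicate in this window. The aak-2 window was also the densest in pooled summits, with 10 in 12312 bp, or 0.812 per kb. For aak-1 (III) the strongest pooled peak had a signal value of 19.9 and rank 1310, 2018 bp downstream of the 5' end. The replicates ranked that site lower than the pooled list did, at 11188 in replicate 1 and 5209 in replicate 2. In replicate 2 the strongest aak-1 peak was another one, 1428 bp upstream and of rank 4011.

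By signal value aakb-1 had the stronger peak of the beta subunit genes, an order that turned round by column 9 (aakb-1 at 10732, aakb-2 at 2351). At aakb-1 (X) the strongest pooled peak lay in an intron 828 bp downstream of the 5' end, with a signal value of 22.2 and rank 683. It overlapped peaks of rank 3932 in replicate 1 and rank 1900 in replicate 2. A second pooled peak, 1250 bp upstream, had rank 2428. It overlapped a peak of rank 483 in replicate 1, with a signal value of 13.8, and none in replicate 2, which had no summit in the intergenic part of this window. At aakb-2 (III) the better pooled peak had a signal value of 12.3 and rank 11701. It lay 3125 bp upstream in an intron of Y47D3A.34 and overlapped no peak of either replicate. Replicate 1 had no summit in the aakb-2 window, and replicate 2 had 1, of rank 11418, 168 bp downstream of the start.

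**Figure D2:**
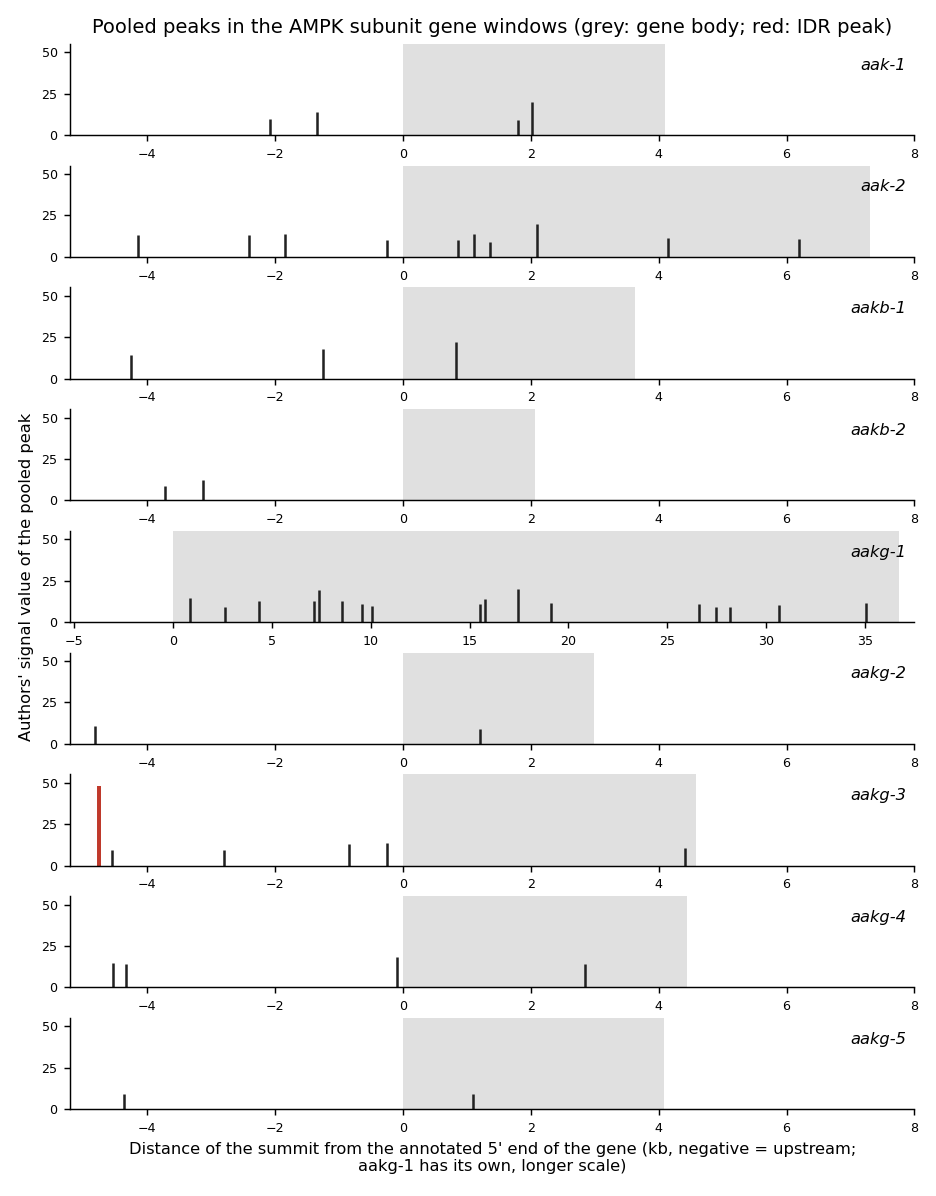
Each vertical line is a pooled peak, placed by the distance of its summit from the gene's annotated 5' end in kb, with the authors' signal value as its height. Grey marks the gene body, and the red line is the IDR peak upstream of aakg-3 (48.2), against at most 22.2 for any other pooled peak in these windows.

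The sequences around the strongest peaks of aakb-1, aak-1 and aak-2 are shown as a contrast to those upstream of aakg-3 and aakg-1, since none of the 4 sequences occurs in them. The one of aakg-4 is added because it lies at a start and holds an E-box, in capitals, 19 bp from the summit. Each covers 50 bp to either side of the summit on the plus strand of WBcel235, at chrX:13756547-13756647, chrIII:8759022-8759122, chrX:16798129-16798229 and chrX:2319380-2319480.

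aakb-1 intron peak: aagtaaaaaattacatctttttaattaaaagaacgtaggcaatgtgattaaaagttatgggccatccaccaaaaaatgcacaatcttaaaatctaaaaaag

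aak-1 intron peak: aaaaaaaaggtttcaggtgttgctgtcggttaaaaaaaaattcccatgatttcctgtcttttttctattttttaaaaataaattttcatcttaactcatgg

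aak-2 intron peak: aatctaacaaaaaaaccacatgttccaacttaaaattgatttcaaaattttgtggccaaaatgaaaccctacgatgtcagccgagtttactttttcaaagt

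aakg-4 promoter peak: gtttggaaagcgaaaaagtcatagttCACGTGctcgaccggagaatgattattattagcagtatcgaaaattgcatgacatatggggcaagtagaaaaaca

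The 3 intron windows shown held many soft-masked bases. Over 201 bp, GC content was 27.4% at aakb-1, 26.4% at aak-1 and 33.3% at aak-2, against a median of 35.8% over pooled windows. Soft-masked bases numbered 102, 114 and 105 in these 3 windows. Over 100 such bases were found in 16.4% of pooled windows and in 1 IDR window of 114. The strongest aakg-1 peak, also in an intron, had 42.3% GC and 52 masked bases, and the other 5 members' windows had 0 to 64 masked bases. The part of sequence composition or repeats in these peaks was not tested. Of the 9 strongest pooled summits, that of aakg-3 was the 1 with a Meis core or a GAGA repeat within 100 bp. It had no Hox-PBC sequence there. That sequence was within 100 bp of the strongest summits of aakg-4 and aakg-1, at aakg-1 across the summit itself. Of all pooled windows, 16.5% held it.

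Ranked among all protein-coding genes by the strongest pooled peak in the window, the 9 genes spread from 0.23 to 84.3%. At the top, 46 genes, or 0.23%, had a peak as strong as that of aakg-3 or stronger, aakg-3 included. Next came aakb-1 (5.24%), aakg-1 (9.49%), aak-1 (9.7%), aak-2 (10.6%) and aakg-4 (14.8%), each percentage being the share of protein-coding genes that did as well or better. Last came aakb-2 (57.2%), aakg-2 (72.4%) and aakg-5 (84.3%). The median best rank was 1430 over the 9 genes, against 7853 over the 17504 protein-coding genes with a pooled summit in the window, and 6 of the 9 were better than that value. Of the 9 genes, 5 lie on X, which carries 5854 of the 30000 pooled peaks and 13.7% of protein-coding genes. No background for X alone was taken. In 2 members, aakg-3 and aakb-1, there was a summit among the 1000 strongest pooled peaks, against 1520 protein-coding genes, or 7.61%. From aakb-1 to aakg-4 the order rests on signal values of 18.2 to 22.2, and the replicates reorder it, with aakb-1 best in replicate 1 (rank 483) and aakg-1 best in replicate 2 (rank 728). The order below aakg-3 holds only by the pooled signal value. Ordered by the deposited column 9, which is below 0 at 29433 of the 30000 pooled peaks, aakg-3 stayed first at 62 and aakg-1 followed at 1296. From that rank on the column is below 0, so it is below 0 at every pooled peak in the windows of the members other than aakg-3. There aakb-2 (2351), aak-1 (3443), aakg-5 (3482) and aakg-2 (3965) stood ahead of aak-2 (6592), aakb-1 (10732) and aakg-4 (23166).

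**Figure D3:**
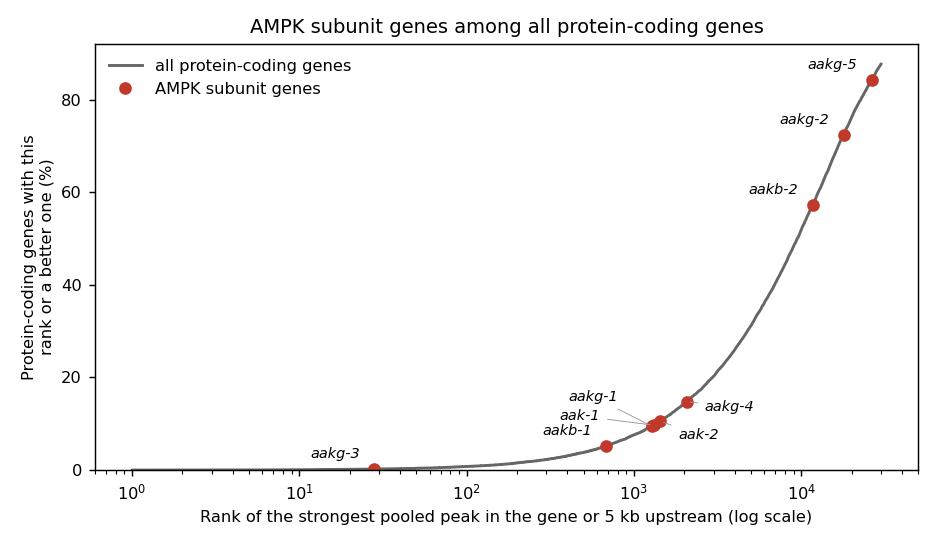
The curve gives the share of all 19973 protein-coding genes (vertical axis, %) whose strongest pooled peak in the gene or 5 kb upstream ranks as strong as or stronger than a given rank (horizontal axis, log scale). Red points are the AMPK subunit genes: aakg-3 stands at 0.23%, 5 genes at 5.24 to 14.8%, and aakb-2, aakg-2 and aakg-5 above 57%.

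Longer windows more often held a summit among the 1000 strongest pooled peaks. The share with an IDR summit did not rise at every step. Member windows ran from 7062 bp (aakb-2) to 41738 bp (aakg-1), with a median of 9101 bp against 7027 bp for protein-coding genes. Over genes with windows of 8000 to below 10000 bp, where aak-1, aakb-1, aakg-3, aakg-4 and aakg-5 fall, 1.34% had an IDR summit and 8.91% a summit among the 1000 strongest. At 10000 to below 15000 bp, where aak-2 falls, the shares were 1.07% and 10.2%. For windows of 30000 bp or more, like that of aakg-1, the shares were 3.45% and 29.3%, and the median best rank was 2303. Together the 9 windows held 50 pooled summits in 114938 bp, or 0.435 per kb.

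The replicates shared the strongest site of some members and not of others. The strongest pooled peak overlapped a peak of both replicates at 4 of the 9 genes, aakg-3, aakb-1, aak-1 and aak-2, against 30.9% of the 17504 protein-coding genes with a pooled summit. At aakg-4 and aakg-1 it overlapped a peak of 1 replicate only, replicate 1 and replicate 2 in that order. At aakb-2, aakg-2 and aakg-5 it overlapped none. Apart from aakg-3, no member had the same site within the 1000 strongest peaks of both replicates. With 2 replicates no spread can be set on these ranks.

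**Figure D4:**
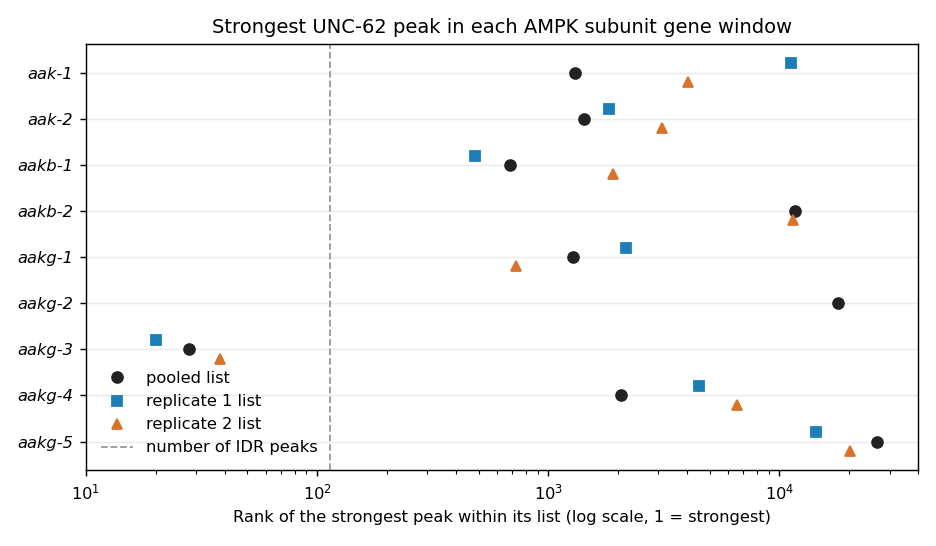
Rank of the strongest peak in each gene's window (horizontal axis, log scale, 1 = strongest) in the pooled list (circles), replicate 1 (squares) and replicate 2 (triangles); a missing symbol means no summit in that list. The dashed line is at 114, the number of IDR peaks. Left of it are the 3 values of aakg-3 (20, 28 and 38), and no value of the other 8 genes.

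The IDR peaks most like that upstream of aakg-3 in their ranks over the pooled, replicate 1 and replicate 2 lists were 3 other X chromosome peaks. Likeness is the Euclidean distance between log10 ranks over these 3 lists. The nearest, at a distance of 0.141, had ranks 31, 15 and 34 in that order of lists. F22H10.2 had the closest start, 2529 bp away, and the summit was intergenic. Next, also at 0.141, was an intron peak in ldb-1, which encodes a LIM domain-binding protein, with ranks 27, 25 and 48. The third, at 0.185, was an intergenic peak whose closest start, 3952 bp away, was that of W02H3.3, with ranks 36, 27 and 45. All 3 were chosen by rank alone, and X carries 31 of the 114 IDR peaks, so nothing beyond the ranks is read from them. Of the AMPK genes, 5 lie on X, against 13.7% of protein-coding genes.

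None of 30 genes that act upstream, beside or downstream of AMPK had an IDR summit in its window, against the 0.871% of all protein-coding genes. At that share a list of 30 genes will most often hold none, so the count does not set these genes apart. The list had 7 upstream kinases and regulators, 4 AMPK-related kinases, 7 genes of the TOR branch and 12 targets and effectors. Among the upstream genes the best was flcn-1, the folliculin gene, whose protein is known to restrain AMPK, with pooled rank 245 in an intron. Overlapping peaks had rank 144 in replicate 1 but 6971 in replicate 2. The gene of the upstream kinase LKB1, par-4, had its best pooled peak at rank 15139. Among the related kinases the best was kin-29, the salt-inducible kinase gene, with pooled rank 121 and a signal value of 32.2, just under the lowest IDR signal of 32.5. Its summit lay 103 bp upstream of the 5' end and ranked 389 in replicate 1 and 166 in replicate 2.

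In the TOR branch none of 7 genes reached the 1000 strongest pooled peaks. Of all protein-coding genes 7.61% did, so a branch of 7 may well hold none. Among upstream genes 1 of 7 did, and among related kinases 2 of 4. The TOR branch gene with the best rank was rheb-1, a small GTPase gene, at rank 2358. Overlapping peaks had rank 848 in replicate 1 but 15876 in replicate 2. Among targets and effectors, 6 of 12 had a summit among the 1000 strongest. The best was skn-1, a stress-response transcription factor gene, with pooled rank 190, rank 518 in replicate 1 and rank 317 in replicate 2, in an intron. In all, 9 of the 30 genes had a summit among the 1000 strongest, or 30%, against 7.61% of protein-coding genes. Windows of these genes were long, with a median of 13644 bp. In windows below 8000 bp, 0 of 5 of them were among the 1000 strongest against 6.24% of protein-coding genes, and at 8000 to below 10000 bp 1 of 3 against 8.91%. At 10000 to below 15000 bp it was 3 of 10 against 10.2%, at 15000 to below 30000 bp 3 of 9 against 14.6%, and at 30000 bp or more 2 of 3 against 29.3%. The list was written with earlier results of these data known and its share was not tested.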

How the data were processed

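The authors deposited narrowPeak lists in ce11 and ce10: per the deposited readme texts, 1 list from each replicate and 1 from pooled replicates, each against a control alignment not analysed here, and an optimal IDR list made from these. Aligner, peak caller, IDR threshold and the scaling of the signal are not given in the sources used. The deposited signal value (column 7) ordered peaks within a list, tied values sharing the better rank. The deposited score in the q-value column (column 9) is below 0 at 29433 of 30000 pooled peaks and served only as another ranking.

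Summits (column 2 plus column 10, counted from 1) were assigned to Ensembl release 115 genes of WBcel235 (ce11 coordinates); no peak ran past a chromosome of the RefSeq WBcel235 sequence, from which the printed sequences and repeat masking come. Replicate peaks matched by at least 1 bp. Depth is unknown, and intervals cover counting error only. Members and lists were chosen with earlier results of these data known. Named were all 9 members, pathway genes with an IDR summit or the best pooled rank of their branch, genes whose own window held a member's IDR summit, the 3 IDR peaks nearest in rank, and unc-62; par-4, mir-34 and other neighbours were added after their values were seen. No test was run. Window assignment, overlaps and motif counts were tested on simulated data. Alternatives covered the window, the assignment, the list, the overlap, the ranking and the sequence. The software was Python 3.11.15 with pandas 2.3.3, NumPy 2.4.6, matplotlib 3.10.9 and SciPy 1.17.1.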

Additional observations from a re-analysis of the deposited data

How the results depend on the processing

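The count of subunit genes with an IDR summit (1) was 0 with 2000 bp upstream (0.561% of all genes) or the gene body only (0.2%), and 2, with aakg-1 added, with 10000 bp upstream (1.43%) or when each summit went to its nearest start (0.531%). It was 1 (aakg-3) when either replicate was left out and the 114 strongest peaks of the other were used. It was also 1 in the stricter list of 57 peaks, with 1000 bp downstream and by any overlap. None of the settings that gave 1 could drop aakg-3, whose peak ranked 28 in the pooled list, 20 in replicate 1 and 38 in replicate 2. The count among the 1000 strongest pooled peaks (2) was 1 (aakb-1) with 2000 bp upstream (4.93% of all genes) or the body only (2.36%), 1 (aakg-3) in the top 500 (3.79%) or ranked by column 9 (7.69%), 6 in the top 3000 (20.3%), and 2 in each replicate alone (7.62% in replicate 1, 6.97% in replicate 2), where aakg-1 takes the place of aakb-1 in replicate 2. The Meis core count (1) was 0 within 50 bp and 0 for TGATNNAT. Overlap with both replicates (4) ranged from 3 to 4, and the pathway count of IDR summits was 0 throughout. For that pathway count the narrower windows and the stricter list could give only 0, and no longer list was tried. Ranked by column 9, aakg-3 (62) and aakg-1 (1296) came first, while aakb-2 (2351), aakg-5 (3482) and aakg-2 (3965) passed aak-2 (6592), aakb-1 (10732) and aakg-4 (23166). With 2000 bp upstream aakg-3 fell to 7677, and with 10000 bp aakg-1 stood at 17 and aakg-5 at 2208. CACGTG was added after the sequences had been read. The ce10 lists gave no value for single genes, since no ce10 annotation was used and positions were not converted. No paired analysis was possible because there is 1 group. Unknown depth and 2 replicates limit every rank.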
